A study of Mus musculus with 24 samples.

Results

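Testis libraries of wild-type (WT) and *Atad2* knockout (KO) mice were examined for 5 genes that are best known from the nervous system, *Nps*, *Kcnab1*, *Grin2b*, *Ptpro* and *Camk2a*, among the 24456 genes of the count tables. The genes were taken by symbol, because an earlier analysis of these counts had them lower in KO testis, with uneven levels between WT replicates. The members were thus selected on their KO minus WT differences in these counts, and those values are therefore given as a description, without a test. Tests are reserved for their change with age, for related genes and for chromosomal neighbours.

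RNA was taken from harvested testes, as the methods of the study describe, although the labels also mention a purification of spermatogenic cell fractions. The study followed transcription in testes that lack functional ATAD2, a bromodomain ATPase that binds chromatin, at the ages when spermatids first appear. The groups were WT and homozygous KO males at days 20, 22, 24 and 26 after birth, with 4 libraries per genotype at each of days 20 and 22 and 2 at each of days 24 and 26, in 24 libraries in all. In the KO allele the first exons of *Atad2* are fused to *lacZ*, and the *neo* cassette and exon 12 were removed with Cre recombinase driven by the ubiquitous CMV promoter, so that every cell type of the animal carries it. Libraries are named by genotype, day and replicate, as in WT_d20_3. The methods call the samples biological replicates but count fewer at day 20 than the labels list. The labels do not say whether each library came from a separate animal, and p-values then measure only the spread between these libraries.

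The genes stand at different steps of neuronal signalling. Neuropeptide S, made by *Nps*, is secreted by a few brainstem cell groups and acts on its receptor NPSR1 to promote arousal. NMDA receptors are glutamate-gated calcium channels built from GRIN1 and GRIN2 subunits, the calcium they admit activates the kinase CaMKII, whose alpha chain is *Camk2a*, and voltage-gated Kv1 potassium channels, with beta subunits such as that of *Kcnab1*, set how readily a neuron fires. *Ptpro* encodes a receptor-type tyrosine phosphatase of neurons and kidney podocytes.

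On build mm10 with the GENCODE M21 annotation, *Nps* (ENSMUSG00000073804.5) spans chr7:135258703-135272942 on the plus strand and *Kcnab1* (ENSMUSG00000027827.16) chr3:65109384-65378223 on the plus strand. *Grin2b* (ENSMUSG00000030209.14) spans chr6:135713233-136173511 on the minus strand, and *Ptpro* (ENSMUSG00000030223.14) chr6:137252319-137463233 on the plus strand. These last genes lie on the same chromosome with a gap of 1.079 Mb. All 5 genes are protein-coding, and counts are of read pairs in their exons on the gene's own strand. The antisense genes A330015K06Rik and A730090N16Rik overlap *Kcnab1* on the opposite strand.

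The RefSeq start windows are printed for the members whose levels varied together or split most clearly by genotype and for which the sequence table held an entry, as the 250 bases before the start on GRCm38.p6, plus strand, with matches of the motifs named below in capitals. *Nps* is at chr7:135268369-135268618, a start inside the gene's GENCODE span. The *Kcnab1* window, the closest of 3 RefSeq starts to its GENCODE start, is at chr3:65108764-65109013, and the *Ptpro* window is at chr6:137252049-137252298.
Nps: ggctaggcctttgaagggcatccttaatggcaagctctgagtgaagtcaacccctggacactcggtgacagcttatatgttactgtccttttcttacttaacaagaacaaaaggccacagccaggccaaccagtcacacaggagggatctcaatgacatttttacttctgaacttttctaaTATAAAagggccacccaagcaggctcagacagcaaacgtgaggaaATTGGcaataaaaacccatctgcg
Kcnab1: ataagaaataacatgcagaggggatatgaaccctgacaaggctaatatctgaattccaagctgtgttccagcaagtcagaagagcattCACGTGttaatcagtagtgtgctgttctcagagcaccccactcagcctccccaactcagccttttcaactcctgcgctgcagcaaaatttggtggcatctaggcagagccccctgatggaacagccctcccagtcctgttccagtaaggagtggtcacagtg
Ptpro: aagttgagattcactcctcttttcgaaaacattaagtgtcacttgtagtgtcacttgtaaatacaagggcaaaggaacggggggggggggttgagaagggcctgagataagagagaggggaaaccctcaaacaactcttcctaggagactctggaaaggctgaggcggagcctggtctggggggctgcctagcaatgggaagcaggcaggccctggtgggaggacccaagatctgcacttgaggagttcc

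Both strands were searched for TATAAA (the TATA box), the letters CCAAT (the site of NF-Y), the letters GGGCGG (the GC box), CACGTG (the E-box) and the letters TGACG, which is also the start of the cAMP response element TGACGTCA. The *Nps* window held TATAAA with its first base at -69 and CCAAT, read on the reverse strand, at -24. The *Kcnab1* window held CACGTG at -162, while of the windows at its other RefSeq starts, not printed, the upstream one held 2 matches of GGGCGG and the downstream one CACGTG at -45, and the *Ptpro* window held none of these letters. Among 32851 RefSeq windows of the same length, TATAAA occurred in 12.4%, CCAAT in 33.8%, GGGCGG in 32.7%, CACGTG in 6.02%, TGACG in 17.8% and TGACGTCA in 1.55%. The windows of *Nps*, *Kcnab1* and *Ptpro* held 3, 2 and 3 CG dinucleotides, against a median of 6 over all windows, and the other *Kcnab1* windows held 6 and 1. A match describes the letters, and its part in the levels was not tested.

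Each library held 10709667 to 19491935 read pairs counted in genes. Levels are given as CPM, the count relative to library size after TMM scaling, and a floor of 3 counts corresponds to 0.153 to 0.316 CPM. All 5 genes passed the filter on low counts, among 17170 genes tested. *Atad2* itself was at 76.1 to 171 CPM in the 12 WT libraries and at 30.8 to 53.0 CPM in the 12 KO libraries, and it was called lower over the mean of the 4 days (log2 fold change -1.37, SE 0.112, adjusted p = 1.23e-07, edgeR quasi-likelihood test). The reads that remain include exons kept in the fusion transcript. The libraries WT_d20_3 and WT_d20_4 stood apart from the other WT libraries in *Kcnab1* and *Grin2b*, as detailed below, while their *Atad2* levels of 76.4 and 94.0 CPM were those of WT. Over all genes it was WT_d20_2 that differed most from the rest of its group (chi-square per degree of freedom 94.2 to 129, against 14 to 28.5 among the others). WT_d20_2 also had the fewest read pairs counted in genes, the most pairs with several alignments (13.7%) and the *Atad2* level of 171 CPM. Markers of epididymis, the duct that adjoins the testis, summed to 54.9 to 721 CPM in 8 libraries (KO_d20_3, WT_d20_3, KO_d22_1, WT_d22_4, KO_d24_2, WT_d24_2, KO_d26_2 and WT_d26_2) and to 2.30 to 20.0 CPM in the other 16, mostly through *Crisp1*. The sums were not balanced between the genotypes: the 4 WT libraries among these 8 were at 278 to 721 CPM and the 4 KO libraries at 54.9 to 161 CPM. *Crisp1* averaged 160 CPM in WT and 33.3 CPM in KO. Of 8 such markers 3 were tested, and edgeR called 0 between KO and WT, with 1 at an unadjusted p under 0.05. DESeq2 called 0 but gave an adjusted p for 1 of the 3 only. For the members, the day 20 and mean differences between KO and WT and the day 26 minus day 20 values in WT are given with and without WT_d20_3 and WT_d20_4. Values without the 8 libraries rich in epididymis markers are given where they bear on a result.

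*Nps* had the cleanest split between the genotypes. At day 20 it was at 2.75, 2.53, 1.79 and 1.37 CPM in the WT libraries 1 to 4 and at 0.435, 0.196, 0.330 and 0.271 CPM in the KO libraries. At day 22 the WT libraries were at 1.76, 2.34, 2.10 and 1.43 CPM and the KO libraries at 0.242, 0.301, 0.0659 and 0.603 CPM. Every KO library lay below every WT library at both ages, with WT_d20_3 and WT_d20_4 inside the WT range of later days.

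The same held for *Nps* at the later ages. At day 24 the WT libraries were at 1.99 and 1.49 CPM and the KO libraries at 0.138 and 0.327 CPM. At day 26 they were at 1.04 and 1.43 CPM in WT and at 0.275 and 0.229 CPM in KO. In counts this is 18 to 36 read pairs per WT library against 1 to 9 per KO library, a level close to the floor of 3 counts. All 12 KO libraries were below all 12 WT libraries, a pattern that 0.099% of the tested genes had. The log2 fold change over the mean of the 4 days was -2.62 (SE 0.246), a level 6.14-fold lower, and the smallest daily value was that of day 26, -2.26 (SE 0.578). The day 20 value moved from -2.74 to -3.06, and the mean to -2.69, when WT_d20_3 and WT_d20_4 were left out. The day 24 value of -2.85 (SE 0.577) was -3.58 without KO_d24_2 and -2.39 without KO_d24_1, and without the 8 libraries rich in epididymis markers it was -3.77, beside -1.86 at day 26.

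*Kcnab1*, the Kv1 beta subunit gene, had the largest KO minus WT difference of the 5 over the mean of the days. At day 20 the WT libraries were at 13.0, 12.8, 1.10 and 1.01 CPM and the KO libraries at 0.363, 0.589, 0.594 and 1.35 CPM. WT_d20_1 and WT_d20_2 were thus at the level of all older WT libraries, whereas WT_d20_3 and WT_d20_4, with 19 and 14 counts, lay inside the KO range. No WT library after day 20 was as low.

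At day 22 *Kcnab1* was at 11.8, 12.3, 10.9 and 16.8 CPM in WT and at 1.45, 1.08, 0.461 and 0.402 CPM in KO. At day 24 it was at 15.3 and 13.2 CPM in WT and at 1.59 and 2.48 CPM in KO, and at day 26 at 12.4 and 16.9 CPM in WT and at 2.07 and 1.32 CPM in KO. From day 22 on, every KO library was far below every WT library. The log2 fold change was -3.26 (SE 0.411) over the mean of the days, or 9.56-fold lower. By day it was largest at day 22, at -3.90 (SE 0.689), and with all libraries smallest at day 24, at -2.80 (SE 0.889). The day 24 value was -3.16 without KO_d24_2. Without the 8 libraries rich in epididymis markers it was -3.26, beside -2.55 at day 26, so which day was smallest depended on the libraries. The day 20 value of -3.21 (SE 0.718) became -4.12 without the pair of low WT libraries, and the mean became -3.47.

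*Grin2b*, the gene of the NMDA receptor subunit GluN2B, repeated the split of the day 20 WT libraries. There it was at 1.81, 1.37, 0.173 and 0.144 CPM in WT libraries 1 to 4, the last pair with 3 and 2 counts. The KO libraries of that day were at 0.363, 0.458, 0.198 and 0.0677 CPM. WT_d20_3 and WT_d20_4 were again within the KO range, at or below the floor, and WT_d20_1 and WT_d20_2 above it.

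At day 22 *Grin2b* was at 2.46, 3.09, 2.50 and 3.12 CPM in WT and at 0.182, 0.301, 0.330 and 0.134 CPM in KO. At day 24 it was at 3.66 and 5.16 CPM in WT and at 1.73 and 0.523 CPM in KO, and at day 26 at 12.2 and 10.3 CPM in WT and at 2.55 and 1.84 CPM in KO. The genotypes did not overlap at these ages, and both had their highest levels at day 26. At day 26 the KO mean was 2.19 CPM, below the WT mean of 2.80 CPM at day 22. The log2 fold change was -2.35 (SE 0.317) over the mean of the days and had its largest daily value at day 22, -3.51 (SE 0.581). The day 20 value of -1.56 (SE 0.655) became -2.51 with WT_d20_3 and WT_d20_4 left out, where the mean was -2.58, and -0.81 with only WT_d20_1 left out. The day 24 value of -1.97 (SE 0.662) became -3.05 with KO_d24_1 left out, -1.35 with KO_d24_2 left out and -1.09 with the 8 libraries rich in epididymis markers left out.

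*Ptpro*, the receptor phosphatase gene, differed little at day 20 and most at day 26. At day 20 it was at 6.29, 5.27, 4.62 and 3.96 CPM in WT and at 4.57, 3.20, 4.56 and 3.45 CPM in KO, and WT_d20_4 lay inside the KO range. At day 22 the WT libraries were at 9.16, 8.78, 8.21 and 9.41 CPM and the KO libraries at 3.63, 2.95, 3.10 and 2.35 CPM. At day 22 the groups were well apart.

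At day 24 *Ptpro* was at 7.94 and 19.2 CPM in WT, the widest pair of any WT day for this gene, and at 3.04 and 4.45 CPM in KO. At day 26 it was at 14.6 and 15.8 CPM in WT and at 2.20 and 2.93 CPM in KO. The WT level was thus higher at the later ages while the KO level stayed between 2.20 and 4.57 CPM throughout. The log2 fold change was -0.35 (SE 0.231) at day 20, or -0.54 without WT_d20_3 and WT_d20_4. It was -1.56 (SE 0.229) at day 22 and -2.56 (SE 0.330) at day 26, and its mean was -1.58 (SE 0.141), or -1.62 without that pair. The day 24 value of -1.85 (SE 0.320) rested on WT_d24_2, the highest library, and was -1.07 with it left out. That library had the highest sum of epididymis markers.

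*Camk2a* (ENSMUSG00000024617.16), the CaMKII alpha gene, lies on the plus strand of chromosome 18, from 60925618 to 60988152. Its genotypes were the least separated of the 5, and it had at most 19 counts in any library. At day 20 it was at 0.393, 0.527, 1.10 and 0.648 CPM in WT and at 0.508, 0.719, 0.198 and 0.203 CPM in KO. At day 22 it was at 0.634, 0.251, 0.466 and 0.972 CPM in WT and at 0.484, 0, 0.132 and 0.0670 CPM in KO. The genotypes overlapped on both days, and here WT_d20_3 was the highest library of all. The 3 highest WT libraries, WT_d20_3, WT_d22_4 and, at day 24, WT_d24_2, had epididymis marker sums of 278, 536 and 721 CPM, and KO_d22_1 one of 132 CPM. The highest KO libraries, KO_d20_2 and KO_d20_1, had sums of only 4.77 and 5.22 CPM. Of the other libraries rich in these markers, WT_d26_2, KO_d20_3, KO_d24_2 and KO_d26_2 were each the lowest of their group for *Camk2a*. A link between these sums and *Camk2a* was not tested.

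At day 24 *Camk2a* was at 0.558 and 0.951 CPM in WT and at 0.276 and 0.262 CPM in KO, and at day 26 at 0.463 and 0.359 CPM in WT and at 0.275 and 0.229 CPM in KO. The KO libraries of these days had 4 counts each, near the floor. The log2 fold change was -1.16 (SE 0.370) over the mean of the days, and its SE at day 26, 0.882, was larger than the value itself, -0.70. The day 20 value went from -0.74 to -0.14, and the mean to -1.0, when WT_d20_3 and WT_d20_4 were left out. The largest daily value was -1.74 (SE 0.631) at day 22. The single KO_d22_1 library carried 8 of the 11 counts of its group, and without it the day 22 value was -3.06. With the 8 libraries rich in epididymis markers left out, which leaves 1 library a group at days 24 and 26, the values of *Camk2a* were -0.14 at day 20, -2.65 at day 22 and -1.12 over the mean. At this depth the counts of *Camk2a* limit each daily value.

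**Figure D1:**
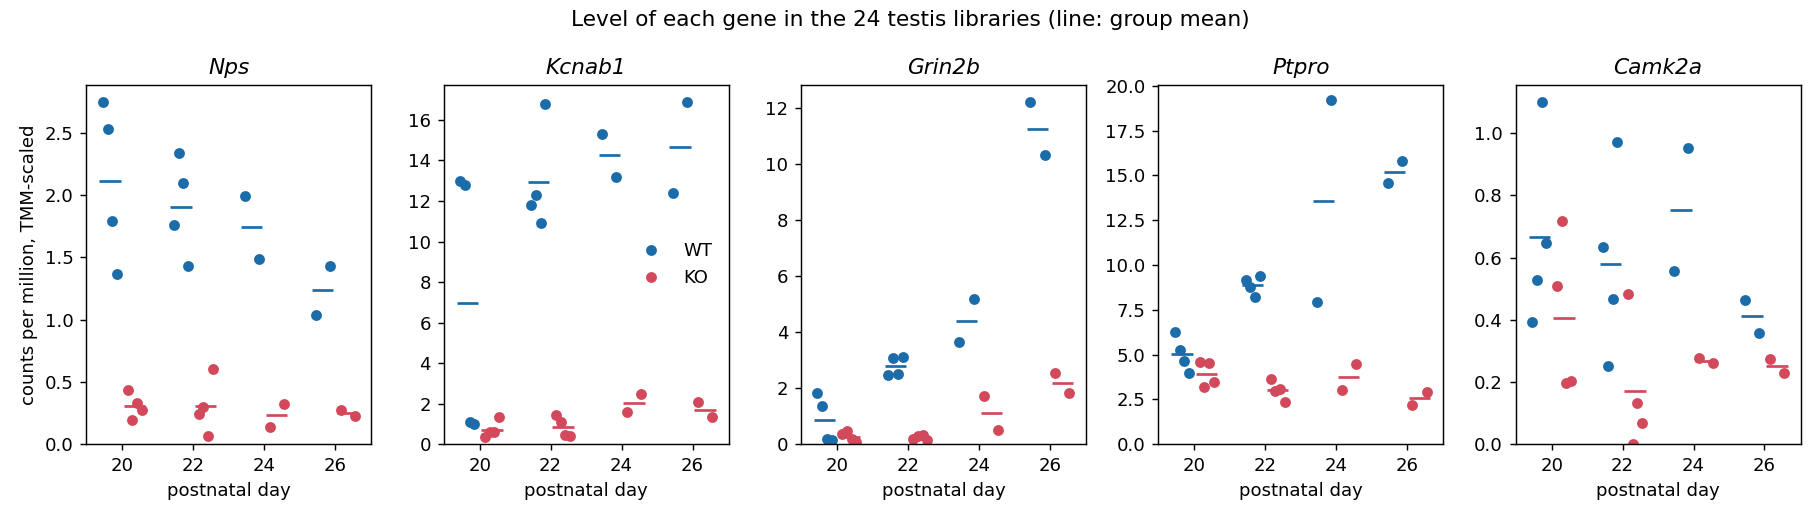
Level of each gene in CPM (TMM-scaled, linear axis from 0, a separate scale per gene) by postnatal day, with 1 point per library in replicate order, WT in blue and KO in red, and a line at each group mean. WT_d20_3 and WT_d20_4 sit at 1.10 and 1.01 CPM for *Kcnab1*, among the KO points, while for *Nps* all 12 KO points lie below all 12 WT points.

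How many of the 5 genes had every KO library below every WT library differed by day. At day 20 this held for 1 of 5, *Nps*, where 1.68% of all tested genes had it. At day 22 it held for 4 of 5, all but *Camk2a*, against 4.45% of tested genes. At days 24 and 26 it held for 5 of 5, where groups of 2 libraries gave it to 21.4% and 31.1% of tested genes. Because the genes were picked for being lower in KO, these counts describe the choice. For comparison, 3.56% of all tested genes were called lower and 3.52% higher in KO over the mean of the days, and the median log2 fold change of all tested genes was 0.01.

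**Figure D2:**
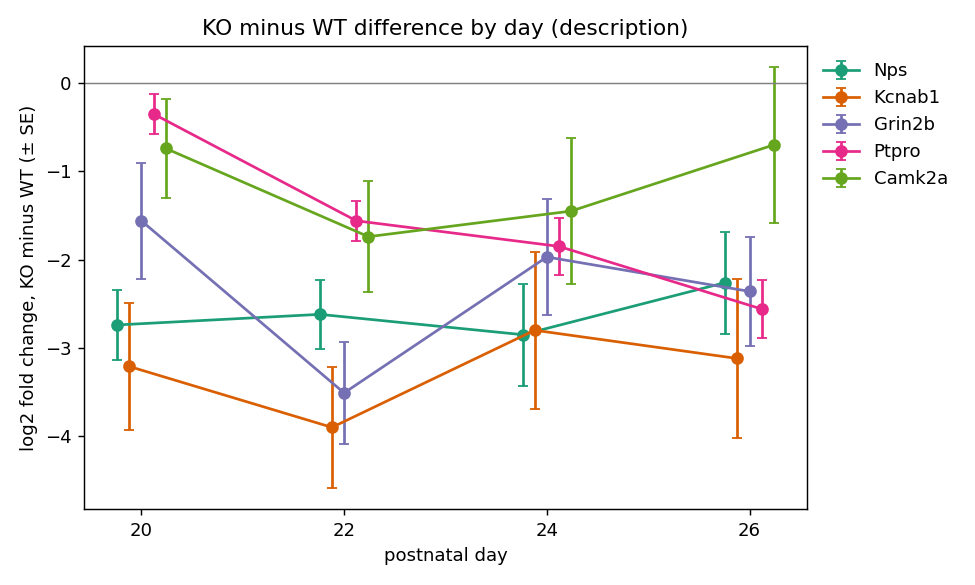
Log2 fold change of KO minus WT by postnatal day for the 5 genes, points offset sideways for legibility, with bars of 1 SE from the edgeR fit. *Ptpro* goes from -0.35 at day 20 to -2.56 at day 26, *Nps* lies between -2.85 and -2.26 with all libraries, and the bars of *Camk2a* are wide.

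The spread between libraries of 1 group was uneven across the genes. The biological coefficient of variation of the edgeR fit was 0.601 for *Kcnab1*, where the median of the 500 genes nearest in level was 0.184, and 0.451 for *Grin2b*, where it was 0.229. For *Nps* it was 0.222 beside 0.258, for *Ptpro* 0.214 beside 0.182 and for *Camk2a* 0.390 beside 0.299. Since uneven WT levels were part of why the genes were chosen, these values describe the choice. In the day 20 WT group the mean and SD were 6.98 ± 6.84 CPM for *Kcnab1* and 0.873 ± 0.845 CPM for *Grin2b* (n = 4), an SD about as large as the mean, against 2.11 ± 0.642 CPM for *Nps* (n = 4).

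Whether the levels changed as spermatogenesis advanced was tested within each genotype, a contrast the choice did not use, though it shares the libraries. *Grin2b* rose in both genotypes and *Ptpro* rose in WT. In WT, *Grin2b* was higher at day 26 than at day 20 by 3.76 on the log2 scale (SE 0.542, adjusted p = 9.12e-06, edgeR), with both day 26 libraries above all 4 of day 20. In KO it was higher by 2.97 (SE 0.656, adjusted p = 0.000879, edgeR), again with no overlap. With the 8 libraries rich in epididymis markers left out these values were 3.49 (adjusted p = 0.00151) and 3.11 (adjusted p = 0.0152, both edgeR). With WT_d20_3 and WT_d20_4 left out the WT value was 2.78 (adjusted p = 6.76e-05, edgeR). A joint test of any difference between the 4 days also passed for *Grin2b*, in WT (adjusted p = 7.67e-05) and in KO (adjusted p = 0.00118, both edgeR). Of all tested genes 24.4% were called higher and 18.1% lower at day 26 in WT, and 27.2% and 24.9% in KO.

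*Ptpro* was higher at day 26 than at day 20 in WT by 1.60 (SE 0.258, adjusted p = 3.63e-05, edgeR), and by 1.36 without the WT_d20_3 and WT_d20_4 libraries (adjusted p = 0.00185, edgeR). Without the 8 libraries rich in epididymis markers it was 1.5 (adjusted p = 0.00196, edgeR). In KO the same difference was -0.61 (SE 0.296, adjusted p = 0.0874, edgeR), with the KO libraries of day 26 below all 4 of day 20. With upper-quartile scaling that value was -0.76 and passed (adjusted p = 0.0370, edgeR), and it also passed without WT_d24_1 (adjusted p = 0.0335) or WT_d24_2 (adjusted p = 0.0305, both edgeR). The difference between the genotypes in this change with age was not tested, since it is made of the KO minus WT values that chose the gene. The joint test over the days gave an adjusted p of 0.000127 in WT and 0.255 in KO (edgeR), where 35.4% and 40.1% of all tested genes passed.

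The remaining genes showed no called change with age. For *Nps* the day 26 minus day 20 value was -0.76 in WT (adjusted p = 0.145) and -0.28 in KO (adjusted p = 0.715, both edgeR), and the WT value was -1.12 with WT_d20_3 and WT_d20_4 left out (adjusted p = 0.0530, edgeR). For *Kcnab1* it was 1.10 in WT (SE 0.676, adjusted p = 0.198) and 1.20 in KO (SE 0.906, adjusted p = 0.279, both edgeR). These *Kcnab1* values turned on the split group: without WT_d20_3 and WT_d20_4 the WT value was 0.16 (adjusted p = 0.764), and the KO value, then 1.18, passed (adjusted p = 0.0317, both edgeR). For *Camk2a* it was -0.72 in WT (adjusted p = 0.421) and -0.68 in KO (adjusted p = 0.483, both edgeR), and the WT value was -0.15 with that pair left out (adjusted p = 0.903, edgeR).

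The partners and relatives of the 5 genes were then compared between KO and WT, on lists of 101 genes of which 77 were tested. Over the mean of the days 8 were called lower and 0 higher by edgeR, where 3.56% and 3.52% of all tested genes were. Of the 77, 20 had an unadjusted p under 0.05, and DESeq2 called 10. With the 8 libraries rich in epididymis markers left out edgeR called 0 of the 76 then tested, with 8 at an unadjusted p under 0.05, and DESeq2 was not run on those libraries. The median log2 fold change of the 77 was -0.03. The called values ran from -1.05 to -0.26. With the stage score described below as a covariate, only *Camk1d* of these 8 stayed called. The count called lower was 4 with WT_d20_3 and WT_d20_4 left out, and 2 without either KO_d26_1 or WT_d24_2. It was 3 to 5 without any of KO_d24_1, KO_d24_2, KO_d26_2, WT_d20_3, WT_d22_2, WT_d22_3, WT_d22_4, WT_d26_1 or WT_d26_2.

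The receptor for neuropeptide S was all but undetected. *Npsr1* had at most 2 counts in any library, at or under the floor in all 24, and was not tested. Of 28 genes in the neuropeptide list, which included *Npsr1*, 7 were tested, with a median log2 fold change of 0.11, and 0 were called by edgeR, with 0 at an unadjusted p under 0.05 and 0 called by DESeq2. In this list, *Nps* therefore had no called companion.

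Of the partners of *Grin2b*, *Grin1*, the obligatory NMDA receptor subunit, was at 0.761 ± 0.236 CPM in WT and 0.783 ± 0.204 CPM in KO (n = 12 each), with a log2 fold change of 0.05 (SE 0.201, adjusted p = 0.923, edgeR). *Grin2a* had at most 6 counts in any library and was not tested. *Grin2c* gave -0.26 (adjusted p = 0.463) and *Grin2d* 0.16 (adjusted p = 0.542, both edgeR). *Grin2d* shared the rise with age of *Grin2b*, at 1.69 in WT (adjusted p = 3.79e-05) and 1.32 in KO (adjusted p = 0.000443, both edgeR). Among the 28 tested genes for glutamate receptors and the postsynaptic scaffold, 1 was called, *Cask*, a scaffold kinase-like protein also present outside the nervous system, at -0.29 (SE 0.0776, adjusted p = 0.0313, edgeR). That call was lost without WT_d20_3 and WT_d20_4 (adjusted p = 0.0529, edgeR) and in 10 of 24 fits that left out 1 library. It was also lost with the stage score described below as a covariate (adjusted p = 0.152, edgeR). The median of the 28 was 0.01.

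The other chains of CaMKII were at -0.07 for *Camk2b* (adjusted p = 0.863), -0.22 for *Camk2d* (adjusted p = 0.109) and 0.03 for *Camk2g* (adjusted p = 0.848, all edgeR). The sign for *Camk2b* turned without WT_d20_3 and WT_d20_4, where it was 0.06, without WT_d24_2, where it was 0.14, and without WT_d26_1, where it was 0.07. *Camk2d* and *Camk2g*, at 28.2 and 40.1 CPM in WT (n = 12), had at least 271 counts in every library. *Camk2d* fell with age, with a change of -0.47 in WT (adjusted p = 0.0291) and -0.7 in KO (adjusted p = 0.00223, both edgeR). Of 15 genes for calmodulin and its kinases 1 was called lower, *Camk1d*, a calmodulin-dependent kinase, at -0.52 (SE 0.0713, adjusted p = 0.000123, edgeR), from 22.8 CPM in WT to 16.2 CPM in KO. Its day 22 contrast was also called (-0.57, adjusted p = 0.0147, edgeR). Without the 8 libraries rich in epididymis markers the call over the mean was lost (-0.56, adjusted p = 0.0941, edgeR).

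The other Kv beta subunit genes were at 0.10 for *Kcnab2* (adjusted p = 0.755) and -0.04 for *Kcnab3* (adjusted p = 0.911, both edgeR), and the sign for *Kcnab3* turned without WT_d20_3 and WT_d20_4 (0.04) and without any of KO_d24_2, KO_d26_1 or WT_d24_2 (at most 0.08), and the value came to 0 without WT_d20_3. *Kcnab2* rose with age, by 1.15 in WT (adjusted p = 0.00398) and 0.94 in KO (adjusted p = 0.0119, both edgeR). Of 9 tested genes of the Kv1 list 1 was called lower, *Kcna5*, a channel-forming subunit known from heart and smooth muscle, at -1.05 (SE 0.317, adjusted p = 0.0475, edgeR), between 0.684 CPM in WT and 0.371 CPM in KO. The call was lost without WT_d20_3 and WT_d20_4 (-0.86, adjusted p = 0.128, edgeR) and in 17 of 24 fits that left out 1 library. With the stage score as a covariate it was lost too (-1.33, adjusted p = 0.0549, edgeR). The median of the 9 was -0.30.

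Receptor tyrosine phosphatases gave the most calls, with 5 of 18 tested lower, 0 higher and a median of -0.19, where 3.56% of all tested genes were lower. *Ptprm*, a homophilic adhesion phosphatase, was at -0.37 (SE 0.0773, adjusted p = 0.00859), *Ptprb*, the phosphatase of endothelial cells, at -0.43 (SE 0.104, adjusted p = 0.0218), and *Ptprt* at -0.46 (SE 0.117, adjusted p = 0.0255, all edgeR). Among the closest relatives of *Ptpro*, *Ptprb* was thus called lower, and *Ptprh* at -0.54 (SE 0.254, adjusted p = 0.207) and *Ptprj* at 0.05 (SE 0.122, adjusted p = 0.869, both edgeR) were not. *Ptprj* rose with age in WT by 1.64 (adjusted p = 9.08e-06) and in KO by 1.09 (adjusted p = 0.000759, both edgeR). In KO, *Ptprh* changed with age by 1.85 (adjusted p = 0.00433) and *Ptprb* by -0.94 (adjusted p = 0.00125, both edgeR). In WT neither was called. Of the 18, 2 were called higher and 6 lower with age in WT, beside 24.4% and 18.1% of all tested genes. In KO these were 2 and 7, beside 27.2% and 24.9%. With the stage score described below as a covariate 0 of the 18 were called (adjusted p = 0.0859 for *Ptprm*, 0.101 for *Ptprb* and 0.121 for *Ptprt*, edgeR). The endothelial markers described below were also lower in KO, and their part in the *Ptprb* value was not tested. The list count was 3 with WT_d20_3 and WT_d20_4 left out, 1 without either KO_d26_1 or WT_d24_2, and 2 or 3 without any of KO_d24_1, KO_d24_2, KO_d26_2, WT_d20_3, WT_d22_2, WT_d22_3, WT_d26_1 or WT_d26_2.

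By single day, edgeR called 2 related genes lower and 0 higher at day 20, where 0.361% of all tested genes were called lower and 2.98% higher, and 1 lower and 1 higher at day 22, where 1.25% and 1.26% were. The day 20 calls were lost, in part or wholly, in nearly all fits that left out 1 library (0 to 3 lower). At day 24, where 0.0699% of all tested genes were called lower and 0.0175% higher, edgeR called 0 related genes, with 1 at an unadjusted p under 0.05 and 0 called by DESeq2. At day 26, where 0.0466% were called lower and 0% higher, it called 0, with 12 at an unadjusted p under 0.05 and 2 called by DESeq2.

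Since these are brain-type genes, markers of nervous tissue were examined in the same libraries. RNA of whole tissue cannot tell fewer cells of a type from less RNA per cell. The summed level of 18 neuron markers was 94.1 to 132 CPM in WT, median 121, and 95.1 to 118 CPM in KO, median 109, and these ranges, pooled over days, overlapped. At day 26 they did not, with 129 to 131 CPM in WT and 112 to 118 CPM in KO, where 31.1% of single tested genes also had every KO library below every WT library. *Tubb3* and *Map2*, which testis cells also express, made up most of that sum. *Snap25*, of the synaptic vesicle fusion machinery, was at 0 in 12 of the 24 libraries and never above 0.143 CPM, and *Gad2*, of GABA synthesis, was at 0 in 14. Several neuron markers had counts in every library. *Elavl3*, *Slc17a7*, *Syt1* and *Nefh* were at means of 10.8, 4.51, 3.88 and 2.9 CPM in WT. Their KO means were 10.3, 4.92, 3.55 and 2.62 CPM. Of 10 neuron markers tested edgeR called 0, with 1 at an unadjusted p under 0.05 and 0 called by DESeq2. Among the markers of glia and Schwann cells *Olig2*, a transcription factor of oligodendrocytes, was at 0 in 21 libraries. Of 7 such markers tested edgeR called 0, with 1 at an unadjusted p under 0.05 and 0 by DESeq2.

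Markers of other cell types did move with genotype. Of 6 endothelial markers 3 were called lower in KO, *Pecam1*, *Cdh5* and *Emcn*, and their sum was 65.0 to 117 CPM in WT and 31.0 to 81.8 CPM in KO. Of 6 peritubular cell markers 3 were called lower, *Acta2*, *Myh11* and *Myl9*, with sums of 433 to 1190 CPM in WT and 304 to 762 CPM in KO. The medians of these lists were -0.48 and -0.43 on the log2 scale. Of 10 round spermatid markers 5 were called higher, with a median log2 fold change of 1, and of 8 elongating spermatid markers 7 were, with a median of 2.14. These shifts were larger at the early days, with round spermatid medians of 2.80, 1.19, 0.01 and 0.11 and elongating spermatid medians of 3.60, 3.12, 1.36 and 0.36 at days 20, 22, 24 and 26. Their sums ranged from 24.7 to 962 CPM in WT and 61.5 to 1110 CPM in KO, and from 1.58 to 3280 CPM in WT and 7 to 3470 CPM in KO. What part these shifts had in the values of the 5 genes was not tested, other than by adding a stage score, the level of round spermatid minus pachytene markers, to the fit. The mean differences were then -2.45 for *Nps*, -3.03 for *Kcnab1*, -1.86 for *Grin2b*, -1.53 for *Ptpro* and -0.74 for *Camk2a*. At day 20 the score took *Grin2b* to -0.29 and *Nps* to -2.28 and turned *Camk2a* to 0.40. At day 22 it took *Grin2b* from -3.51 to -2.8.

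**Figure D3:**
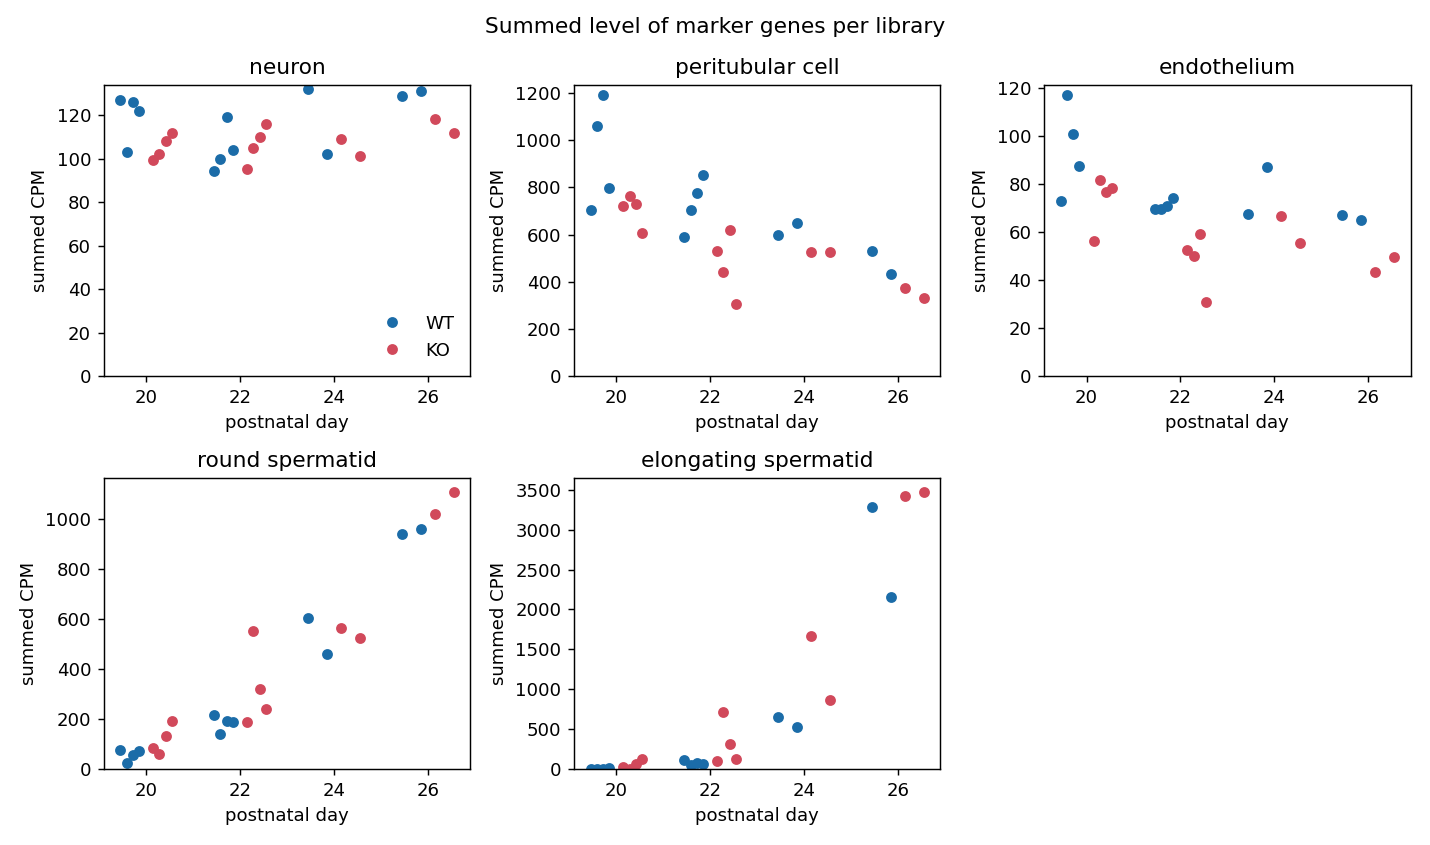
Summed CPM of 5 marker lists per library by postnatal day (linear axes from 0, WT in blue, KO in red, 1 point per library). The neuron sums of the genotypes overlap when pooled over days but not between the 2 WT and 2 KO libraries of day 26, a split that 31.1% of single tested genes had, the endothelial sums lie at 65.0 to 117 CPM in WT and 31.0 to 81.8 CPM in KO, and the spermatid sums climb with age in both.

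The genes whose levels most resembled those of each member were ranked by Pearson's r over the 24 libraries on log2 CPM, as a description, since libraries of a group share age and genotype. *Nps* was followed by A330076C08Rik (r = 0.93), *Fam13c* (0.92) and *Sarm1* (0.91), the last an enzyme that degrades NAD in injured axons. Within the 12 WT libraries alone these values were 0.12, 0.32 and 0.28, and within the 12 KO libraries 0.54, 0.47 and 0.6. All were below the values over both genotypes. A330076C08Rik was at 8.49 CPM in WT and 1.19 CPM in KO on average. For *Nps* 0 of the 3 were also among the first 3 by Spearman's rho.

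*Kcnab1* was followed by *Tagap* (r = 0.94), a GTPase-activating protein known from T cells, *Loxhd1* (0.94), a protein of inner ear hair cells, and Rps15a-ps6 (0.91), a processed pseudogene whose count is uncertain because it shares sequence with its parent. Here the likeness also held within WT, at 0.95, 0.84 and 0.92 over 12 libraries, while within the 12 KO libraries r was 0.63, 0.72 and -0.24. *Tagap* was at 10.2, 9.16, 3.29 and 1.30 CPM in the day 20 WT libraries 1 to 4, against 0.725 to 3.10 CPM in KO. Rps15a-ps6 was at 5.11, 12, 1.10 and 1.66 CPM there, against 1.29 to 1.65 CPM in KO. WT_d20_3 and WT_d20_4 were thus low for these genes too, within, beside or below the KO range, whereas *Loxhd1*, at 3.76 and 4.68 CPM, stayed above its KO range of 2.03 to 2.38 CPM.

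*Grin2b* was followed by Gm6682 (r = 0.89), *Hyal6* (0.89), a hyaluronidase gene expressed in testis, and *Ckmt2* (0.88), the mitochondrial creatine kinase of muscle. Their r was 0.86, 0.82 and 0.92 within WT and 0.87, 0.84 and 0.79 within KO, over 12 libraries each. *Hyal6* was at a mean of 182 CPM in WT and 112 CPM in KO. *Ptpro* was followed by *Fcgr3* (0.89), an Fc receptor of myeloid cells, Gm7694 (0.86) and *Arfgef3* (0.86). *Fcgr3* was at 49.1, 35.4, 21.1 and 22.0 CPM in the day 20 WT libraries 1 to 4, with the last pair inside its KO range of 20.5 to 26.9 CPM. *Camk2a* was followed by *Gpc3*, a cell-surface glypican, *Col14a1*, a fibril-associated collagen, and *Kcnj15*, an inward rectifier channel, each at 0.83. Without KO_d22_2 and KO_d22_4, the libraries farthest from its median, these fell to 0.74, 0.75 and 0.70.

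Among the members themselves, *Kcnab1* and *Grin2b* were the closest pair (r = 0.83 over 24 libraries, 0.87 within WT, 0.47 within KO). *Grin2b* and *Ptpro* reached 0.74, with 0.90 within WT and -0.38 within KO. *Nps* and *Kcnab1* reached 0.77, but 0.16 within WT. *Camk2a* gave 0.30 to 0.51 with the others. *Grin2b*, *Kcnab1* and *Ptpro* thus varied together across WT libraries, and *Nps* and *Camk2a* did not follow them there. In WT, *Grin2b* and *Ptpro* also both rose with age. The members were chosen for lower KO levels and uneven WT replicates. These correlations draw on the same values and describe the choice in part.

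**Figure D4:**
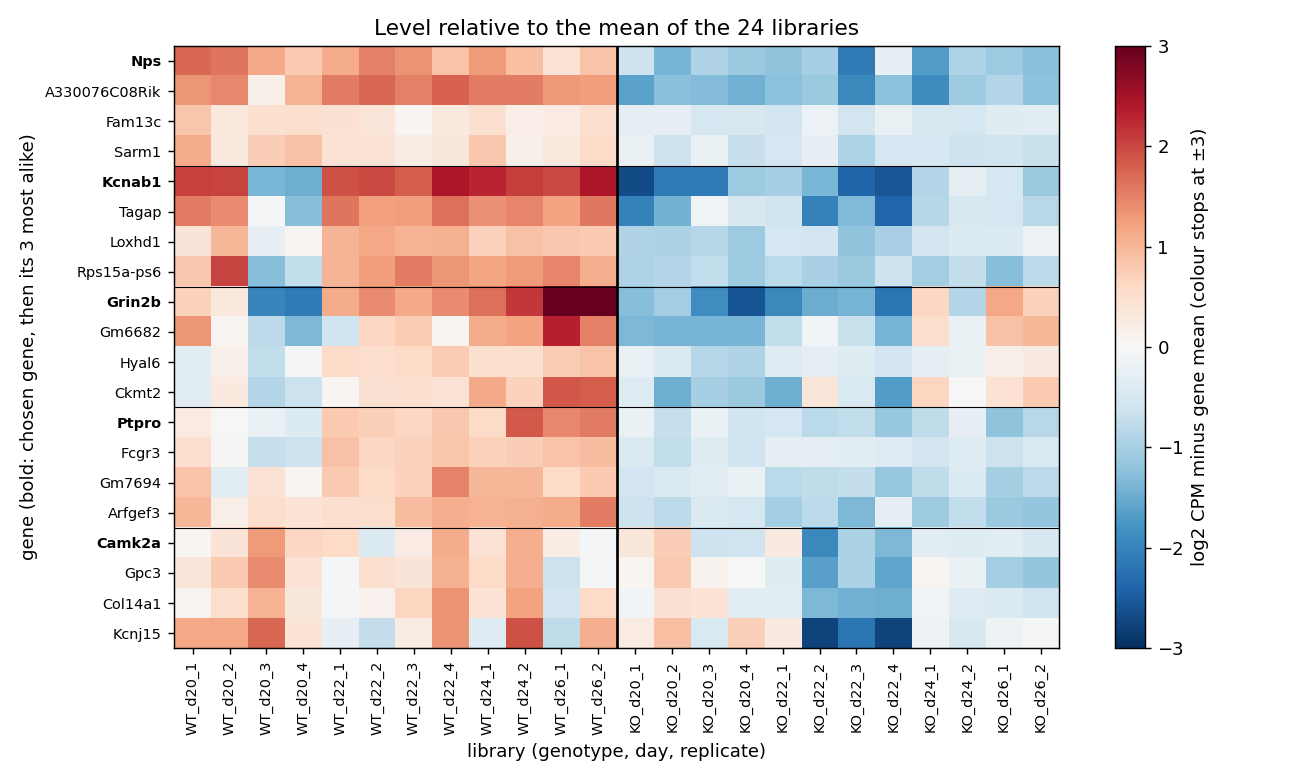
Log2 CPM of each member (bold) and of its 3 most similar genes, as the difference from the gene's mean over the 24 libraries, with libraries in columns (WT left of the line, KO right) and colour from blue (lower) to red (higher), ending at 3 in both directions. The columns WT_d20_3 and WT_d20_4 are blue for *Kcnab1*, *Grin2b*, Rps15a-ps6 and *Fcgr3* and red for *Nps* and *Camk2a*.

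Whether the lower levels extended along the chromosome was examined in the 72 tested genes that lie within 1 Mb of a member. Over the mean of the days 4 were called higher and 5 lower in KO by edgeR, with a median log2 fold change of 0.00, where 3.52% and 3.56% of all tested genes were called. The members were chosen for their differences, so no comparison of size with the neighbours is drawn. Near *Grin2b* were *Emp1*, a membrane protein gene, at -0.78 (adjusted p = 9.03e-05), BC049715 at 0.63 (adjusted p = 0.00112) and *Gsg1*, a germ cell gene, at 1.16 (adjusted p = 0.0205, all edgeR). BC049715 also lies within 1 Mb of *Ptpro*, as does *Art4*, an ADP-ribosyltransferase gene, at -0.47 (adjusted p = 0.0474, edgeR).

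Near *Kcnab1* the vomeronasal receptor gene *Vmn2r7* was higher by 2.43 (SE 0.580, adjusted p = 0.0226, edgeR), the opposite direction. Its difference was 4.68 at day 20 and 4.65 at day 22 but 0.39 at day 24 and -0.02 at day 26, and adding the stage score took the mean to 0.79 (adjusted p = 0.352, edgeR). *Gsg1* near *Grin2b* likewise went to 0.35 with the stage score (adjusted p = 0.0799, edgeR). Near *Nps*, *Dock1*, an activator of Rac, was at -0.22 (adjusted p = 0.0320, edgeR). Near *Camk2a*, *Pdgfrb*, a growth factor receptor of mural and mesenchymal cells, was at -0.56 (adjusted p = 0.0230) and *Slc6a7*, a proline transporter of brain, at 0.70 (adjusted p = 0.0304, both edgeR). Leaving out WT_d20_3 and WT_d20_4 gave 3 higher and 4 lower, with *Art4*, *Dock1*, *Pdgfrb* and *Vmn2r7* no longer called and *Plbd1* (-1.04, adjusted p = 0.0249) and *Dera* (-0.56, adjusted p = 0.00424, both edgeR) called in addition. With the 8 libraries rich in epididymis markers left out 0 were called higher and 1 lower, *Emp1* (adjusted p = 0.0441, edgeR). The count called lower was 1 without any of KO_d26_1, KO_d26_2 or WT_d24_2 and 9 without WT_d20_2, and the count called higher was 1 without KO_d24_1 or WT_d24_2.

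**Figure D5:**
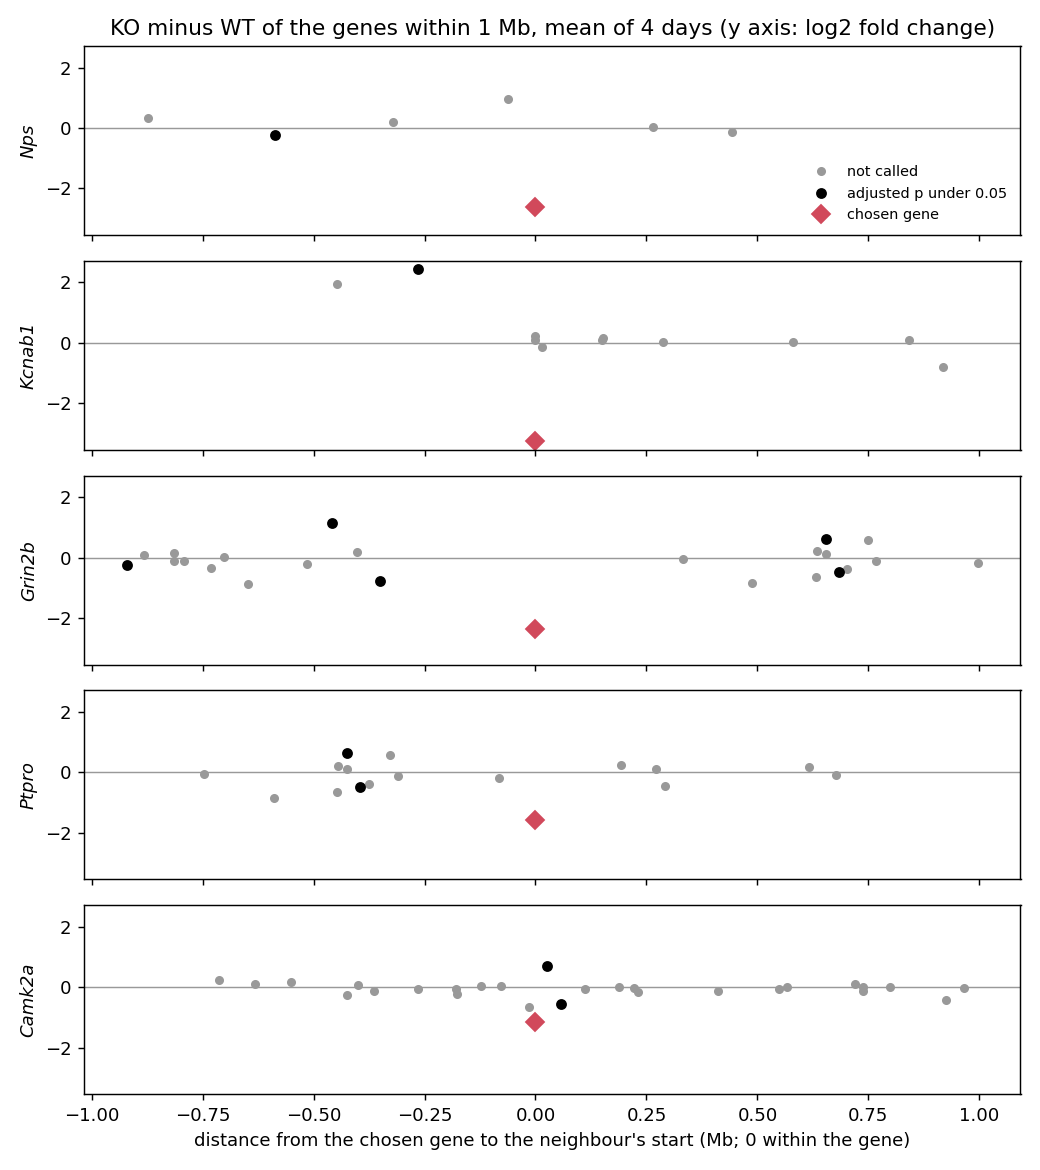
Log2 fold change of KO minus WT over the mean of 4 days for each tested gene within 1 Mb of a member, by distance in Mb to its start, with the member as a red diamond, genes with an adjusted p under 0.05 in black and the others in grey. The diamonds lie at -2.62 for *Nps*, -3.26 for *Kcnab1*, -2.35 for *Grin2b*, -1.58 for *Ptpro* and -1.16 for *Camk2a*, values that the choice of members fixed to be low.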

How the data were processed

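Total RNA of mouse testis was sequenced as ribosome-depleted, stranded libraries. The authors aligned read pairs to mm10 with STAR 2.7.11b, counted them per gene and strand with HTSeq and deposited raw counts, 1 table per library with 24456 genes and 5 tallies. The version of the gene models is not given in the sources used here. The tallies (53.7% to 69.0% of pairs) were left out of library sizes. Pairs with several alignments were not counted, which lowers the count of any gene with a close copy.

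Counts were fitted with edgeR 4.0.16 in R 4.3.3: TMM scaling, filterByExpr at a minimum count of 10, a robust quasi-likelihood fit with 8 groups over 24 libraries, two-sided tests, Benjamini-Hochberg adjustment over 17170 genes and calls at 0.05. DESeq2 1.42.0 was an alternative. CPM correlations used a prior count of 2. The fit was tested on simulated data. Same-group libraries always differed by more than sampling noise (lowest chi-square per degree of freedom 5.07 in 28 pairs). Floors cover counting error only.

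The members and the lists were chosen with earlier results of these data known. Named genes were the members, their nearest relatives, up to 3 called genes per list or per member's neighbours, the 3 genes most like each member, and the highest and lowest markers. Some neuron markers between these were also named. Of the symbols, 23336 were placed by GENCODE M21, 317 by RefSeq and 803 were not placed. Promoter windows came from RefSeq (GRCm38.p6) and were printed for 3 members. Alternatives were DESeq2, upper-quartile scaling, no filter, separate fits, a replicate block, a stage score, other windows and rankings, each library left out and, added after seeing the data, WT_d20_3 and WT_d20_4 both left out, or the 8 libraries with summed epididymis markers over 50 CPM left out.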

Additional observations from a re-analysis of the deposited data

How the results depend on the processing

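Of 790 alternative values for the members, 767 stayed within the spread of the reported value, 22 moved further and 1 reversed. Most of these fits left out 1 library, 24 for each value, and for a daily value many left out a library of another day. Such a fit can hardly move that value. The spread was the SD of log2 CPM within groups, which is wide where the day 20 WT libraries split. *Grin2b* at day 20 thus counted as unmoved at -0.81, without WT_d20_1, and at -2.51, without WT_d20_3 and WT_d20_4. The share that stayed is therefore not a measure of stability. The reversal was *Camk2a* at day 20 with the stage score as a covariate (0.40). The stage score also reversed *Grin1* (-0.26), *Kcnab2* (-0.15) and *Ptprj* (-0.25), and leaving out WT_d20_3 and WT_d20_4, an alternative added after seeing the data, reversed *Camk2b* (0.06) and *Kcnab3* (0.04). With 1 library left out, *Camk2b* ran from -0.19 to 0.14 and *Kcnab3* from -0.20 to 0.08. Counts of calls moved more. With the stage score, 0 Kv1, 0 glutamate receptor and 0 phosphatase genes, 1 related gene lower over the mean, 0 lower at day 20, 0 higher at day 22, and 1 neighbour higher and 1 lower were called. Without WT_d20_3 and WT_d20_4 these were 0 Kv1, 0 glutamate receptor and 3 phosphatase genes, with 4 related genes lower over the mean and 0 at day 20. With the 8 libraries rich in epididymis markers left out, also added after seeing the data, 16 remained, a lone library was assumed to vary like the other groups, *Camk2b* and *Kcnab3* reversed (0.11 each), and called were 0 genes of each related list, 0 related genes at any day or over the mean, and 0 neighbours higher and 1 lower; fewer libraries were fitted. Without the filter, 0 Kv1 and 3 phosphatase genes, 3 neighbours lower, and 5 related genes lower over the mean and 0 at day 20 were called. DESeq2 called 2 glutamate receptor genes, 1 related gene higher at each of days 20 and 26 and 1 lower at day 26, and upper-quartile scaling called 2 glutamate receptor genes. With each day fitted alone, 0 related genes were higher at day 22 and 3 at day 26, and 0 were lower at day 20, 0 at day 22 and 5 at day 26. A window of 0.5 Mb held 3 neighbours called lower and one of 2 Mb held 8. Of the 3 genes most like a member, Spearman's rho kept 0 for *Nps* and *Camk2a* and 1 for *Kcnab1*, and leaving out the 2 farthest libraries kept 0 for *Camk2a*. With 1 library left out, calls ran from 0 to 1 in the Kv1 list, 0 to 2 in the glutamate receptor list, 1 to 7 in the phosphatase list, 1 to 6 for neighbours higher and 1 to 9 lower. For related genes they ran from 2 to 10 lower over the mean, 0 to 3 lower at day 20, 0 to 1 higher and 0 to 1 lower at day 22 and 0 to 1 lower at day 26. The cause of these changes was not tested.

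Whether replicate numbers pair WT and KO libraries differed by day. Same-numbered correlations ran from 0.07 to 0.42 at days 20, 24 and 26, with 7 of 8 libraries closest to their own number. Both pairs gave the same r at day 24 (0.39) and at day 26 (0.42), so the matches within these days are not separate. Libraries rich in epididymis markers also shared numbers on these days (KO_d20_3 and WT_d20_3, KO_d24_2 and WT_d24_2, KO_d26_2 and WT_d26_2). At day 22 the correlations ran from -0.46 to -0.03, with 0 of 4. The main fit therefore did not take the numbers as pairs. With the replicate number within each day as a block, related genes called were 1 higher and 1 lower at day 20 and 0 higher at day 22. *Art4* was then lost (adjusted p = 0.0517, edgeR). The age contrasts could not be fitted with this block, since each block lies within 1 day. Depth limits *Nps*, *Camk2a* and early *Grin2b*, whose KO libraries lie near the floor of 3 counts.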
